A study of Mus musculus with 8 samples.

Results

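The genes described here encode the machinery that writes and reads histone H3 lysine 9 methylation (H3K9me) at repeats and silenced genes. They are the corepressor Trim28, the H3K9 methyltransferases Setdb1, Ehmt1, Suv39h1 and Suv39h2, the heterochromatin protein 1 (HP1) genes Cbx1, Cbx3 and Cbx5, and the histone chaperone pair Atrx and Daxx. They were taken as the rows of the expression table whose gene name equals one of these 10 symbols. All 10 were found among the 34369 symbols of the table, and all 10 passed the filter on low values, as did 11949 genes in all.

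The data were RNA-seq of induced pluripotent stem (iPS) cells of the mouse, cells reprogrammed to a state like that of embryonic stem cells. The mutator cells were homozygous for the D257A substitution in Polg, by which the catalytic subunit of the polymerase of mitochondrial DNA loses its proofreading. The design text counts 5 independent mutator lines and 3 wild-type lines from littermate embryos. All cells had been kept on arrested feeder cells with LIF, the cytokine that maintains pluripotency, and then passed once on gelatin. Values are FPKM, fragments scaled to transcript length and library depth, so that levels of different genes can be set side by side. Polg transcripts averaged 9.48 ± 0.539 FPKM (SD, n = 3) in wild-type samples, beside 10.2 ± 1.93 FPKM (SD, n = 4) in the mutator group. A substitution leaves the transcript in place, so this level does not check the genotype.

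Several libraries stood apart in ways that bear on every value below. Mutator replicates 1 and 2 differed by 2.07 times the sampling noise, against 7.55 to 33.8 times for the other pairs within a group, and their column headers share a code. They were averaged and counted as 1 sample, which leaves 4 mutator and 3 wild-type samples. Y-linked transcripts (4 genes summed) lay at 68.6 to 143 FPKM in the wild-type libraries and at 76.7 to 90.6 FPKM in mutator replicates 5 and 3. They lay at 1.65 to 6.6 FPKM in mutator replicates 1, 2 and 4, and the labels give no sex. Markers of feeder fibroblasts (20 of 20 found, 0 of them at 0 in a library) summed to 173 to 217 FPKM in wild-type and 227 to 487 FPKM in mutator samples. Primitive endoderm markers (15 of 15 found) summed to 56.4 to 67.3 and 68.9 to 403 FPKM, and 4 of them were listed at 0 in at least 1 library. The 12 pluripotency markers were detected in every library, at a sum of 1063 to 1340 FPKM in wild-type and 659 to 903 FPKM in mutator samples. None of the 12 passed the test, and 5 had a higher mean in mutator cells. The sum was carried by Tdgf1, at 128 beside 330 FPKM, and Pou5f1, at 148 beside 263 FPKM, while Sox2 was at 69.7 beside 68.4 FPKM. These RNAs come from bulk cultures, in which fewer cells of a type and less RNA per cell cannot be told apart.

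TRIM28, also called KAP1, is brought to DNA by KRAB zinc-finger proteins and in turn brings SETDB1, which trimethylates H3K9. HP1 proteins bind that mark and help to keep the chromatin compact, SUV39H1 and SUV39H2 methylate pericentric repeats, and EHMT1 works with EHMT2 on the dimethyl mark of euchromatin. ATRX and DAXX deposit the histone variant H3.3 at repeats and telomeres. In pluripotent cells this system is known for holding endogenous retroviruses silent.

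The sequences upstream of these genes give a picture of the promoters whose transcripts are compared. They are the 250 bases before the RefSeq start site (GRCm38.p6), 5′ to 3′ on the gene's strand. They are shown for the 4 genes whose mutator samples all lay below the wild-type samples, for Trim28 and for Suv39h1, the paralog of Suv39h2 that was not lower. The lines belong to Trim28 (chr7:13023902-13024151, plus strand), Cbx1 (chr11:96788885-96789134, plus strand), Cbx3 (chr6:51470366-51470615, plus strand), Cbx5 (chr15:103239853-103240102, minus strand), Suv39h2 (chr2:3474987-3475236, minus strand) and Suv39h1 (chrX:8074761-8075010, minus strand). For Cbx3, Cbx5 and Suv39h1 the first of the listed start sites is shown, and the RefSeq start of Trim28 lies inside its longer GENCODE gene. Capitals mark matches on either strand to 5 motifs, and neighbouring matches can run together. The E2F core was searched as the word TTCCCGC with 3 related words, namely TTCGCGC first, then the word TTGCCGC and last the word TTGGCGC. The GC box was searched as GGGCGG, while for the CCAAT box the word CCAAT was used. The cAMP response element was searched as TGACGTCA, and the TATA box by the word TATAAA.
Trim28: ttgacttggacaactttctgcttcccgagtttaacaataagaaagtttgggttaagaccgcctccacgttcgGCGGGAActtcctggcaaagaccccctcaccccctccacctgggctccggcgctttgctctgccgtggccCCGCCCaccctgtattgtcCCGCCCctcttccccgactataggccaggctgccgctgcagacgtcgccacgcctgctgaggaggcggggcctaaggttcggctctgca
Cbx1: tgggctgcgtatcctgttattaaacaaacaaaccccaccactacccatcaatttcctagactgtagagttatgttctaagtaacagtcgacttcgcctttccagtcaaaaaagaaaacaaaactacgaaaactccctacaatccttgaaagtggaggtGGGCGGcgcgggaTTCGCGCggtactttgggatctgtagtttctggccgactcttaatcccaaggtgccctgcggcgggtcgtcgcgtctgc
Cbx3: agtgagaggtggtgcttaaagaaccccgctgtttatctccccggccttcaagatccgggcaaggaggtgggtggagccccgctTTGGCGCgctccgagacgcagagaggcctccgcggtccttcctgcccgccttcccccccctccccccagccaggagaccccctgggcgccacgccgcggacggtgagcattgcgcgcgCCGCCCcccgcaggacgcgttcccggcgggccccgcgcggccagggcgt
Cbx5: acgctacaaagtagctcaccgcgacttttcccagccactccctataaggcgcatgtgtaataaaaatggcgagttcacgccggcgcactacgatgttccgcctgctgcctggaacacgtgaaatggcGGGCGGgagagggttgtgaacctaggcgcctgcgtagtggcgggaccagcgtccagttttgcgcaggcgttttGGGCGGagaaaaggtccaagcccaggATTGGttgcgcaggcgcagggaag
Suv39h2: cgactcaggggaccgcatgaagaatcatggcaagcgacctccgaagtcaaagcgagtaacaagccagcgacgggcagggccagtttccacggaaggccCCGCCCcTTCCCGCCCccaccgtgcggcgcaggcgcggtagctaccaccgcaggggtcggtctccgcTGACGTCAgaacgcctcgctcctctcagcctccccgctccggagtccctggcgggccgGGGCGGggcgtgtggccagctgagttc
Suv39h1: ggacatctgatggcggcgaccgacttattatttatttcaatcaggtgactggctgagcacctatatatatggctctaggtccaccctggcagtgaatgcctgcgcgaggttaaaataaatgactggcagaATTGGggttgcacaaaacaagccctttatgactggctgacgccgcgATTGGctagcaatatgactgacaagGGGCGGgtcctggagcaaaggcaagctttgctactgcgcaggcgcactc

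An E2F core lay in a window of 5 of the 10 genes, against 7.89% of all 32851 promoter windows. The 5 were Trim28, Cbx1, Cbx3, Suv39h2 and Suv39h1, the last in its second window (chrX:8074362-8074611), which is not printed. A GC box was found for 9 of the 10 genes, all but Atrx, against 32.7% of all windows. A CCAAT box was found for Setdb1, Cbx5, Atrx, Daxx and Suv39h1, against 33.8% of windows. The cAMP response element lay in the Suv39h2 window, against 1.55% of windows, and a TATA box in none of the members' windows, against 12.4%. Some genes have more than 1 window, 15 in all, which raises their chance of a match over that of a single window. The words of the E2F core and the GC box consist mostly of G and C. The members' windows ran from 48.4% GC with 6 CpG (Atrx) to 75.6% GC with 31 CpG (second Cbx3 window). Over all windows the medians were 52.4% and 6. The part of base composition in these shares was not tested. These are matches of letters, not measured binding.

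Of the 10 genes, 8 had a log2 change below 0, but none passed the test across all genes. A change below 0 was found for 52.4% of all genes tested and for 61.6% of those that averaged 5 FPKM or more. Cbx1, Cbx3, Cbx5 and Suv39h2 had every mutator library below every wild-type library. Trim28, Setdb1, Daxx and Ehmt1 had lower means with overlapping samples, while Atrx was nearly level and Suv39h1 had a higher mean. With limma and Benjamini-Hochberg adjustment over 11949 genes, 0 of the 10 had an adjusted p below 0.05, where 7.49% of all genes did. At an unadjusted p below 0.05 there were 4, all lower, where 16.8% of all genes were lower at that level. Likewise 4 of the 10 had non-overlapping lower samples, against 16.2% of all genes, and 0 had non-overlapping higher samples, against 12.4%. All 10 averaged 5 FPKM or more. Among the 6221 such genes, 1384 were lower at an unadjusted p below 0.05. Of the same 6221, 1336 had non-overlapping lower samples and 552 non-overlapping higher ones. The median log2 change of the 10 was -0.42, beside -0.03 for all genes tested and -0.15 for the 6221 genes that averaged 5 FPKM or more. How many passed depends on how the libraries are counted and weighted. With mutator replicates 1 and 2 counted separately 4 passed (Cbx1, Cbx3, Cbx5 and Suv39h2; background for lower genes 10.9%), and the same 4 passed with array weights (15.8%). With median-of-ratios size factors Cbx1, Cbx5 and Suv39h2 passed (9.87%).

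**Figure D1:**
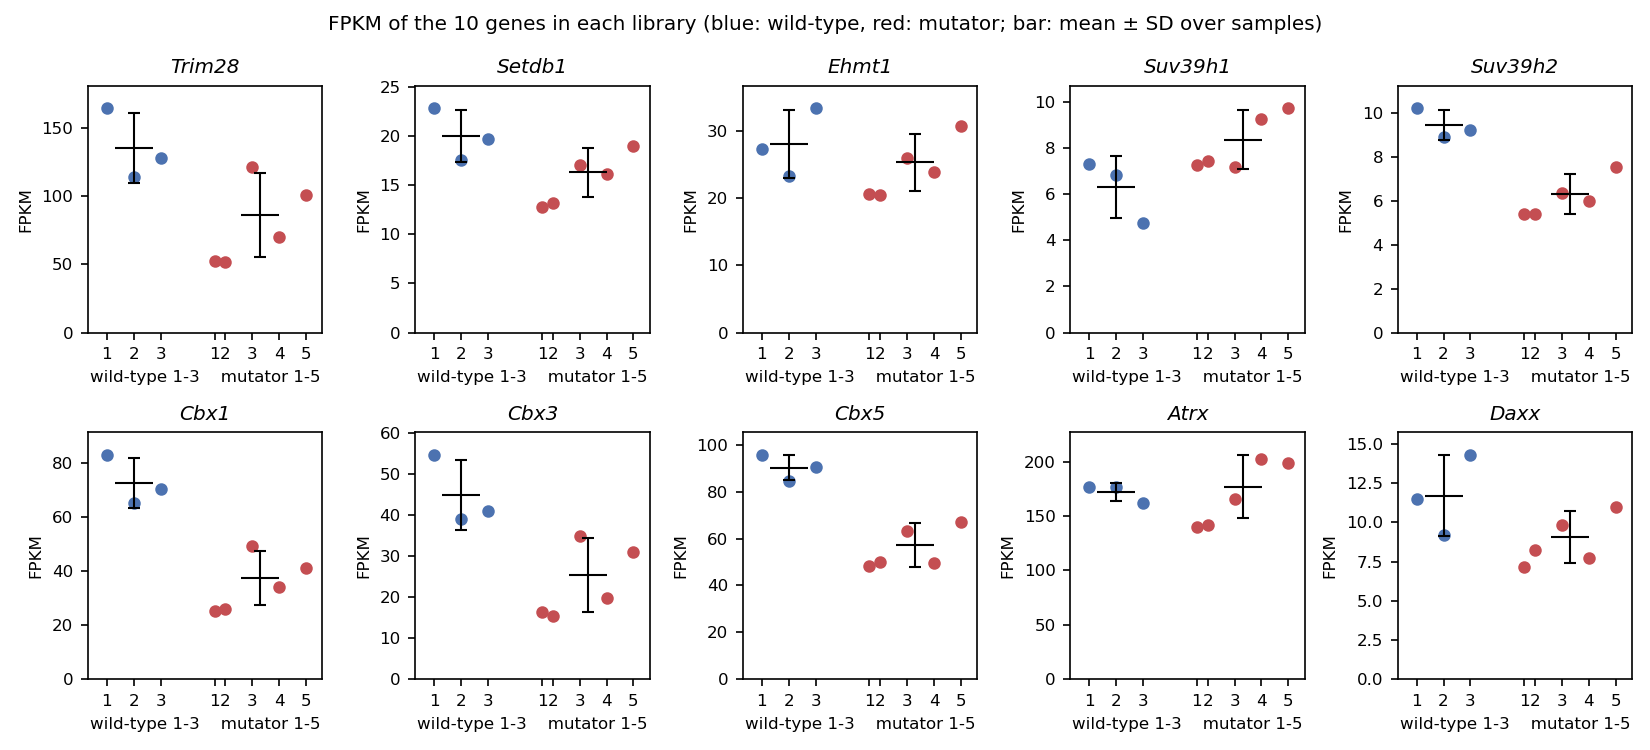
FPKM (vertical axis) of the 10 genes in the 3 wild-type (blue) and 5 mutator (red) libraries, numbered by replicate; bars give the mean and SD over 3 wild-type and 4 mutator samples, with mutator replicates 1 and 2 averaged. The red points of Cbx1, Cbx3, Cbx5 and Suv39h2 all lie below the blue ones, and those of Atrx and Suv39h1 do not.

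Trim28 encodes the scaffold that joins KRAB zinc fingers to the silencing enzymes (ENSMUSG00000005566, chromosome 7, 12999114 to 13031035, GENCODE M21 on GRCm38). It measured 164, 114 and 128 FPKM in wild-type replicates 1 to 3, and 52.7, 51.5, 121, 70.0 and 101 FPKM in mutator replicates 1 to 5. Mutator replicate 3 lay within the wild-type range, and replicates 1, 2 and 4 were the 3 lowest of all libraries. The means were 135 ± 25.7 FPKM (SD, n = 3) and 86.0 ± 30.8 FPKM (SD, n = 4), a log2 change of -0.70 (standard error 0.31; limma adjusted p = 0.17). Its 95% interval ran from -1.42 to 0.02. Against wild-type samples, mutator replicates 3 and 5 alone gave -0.27, and replicates 4 and 5 alone gave -0.66.

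Setdb1, the methyltransferase that TRIM28 brings in, had a smaller log2 change than Trim28, a difference that was not tested (chromosome 3, 95323525 to 95357202). It measured 22.8, 17.6 and 19.7 FPKM in wild-type cells and 12.8, 13.2, 17.0, 16.1 and 19 FPKM in mutator cells. Mutator replicate 5 overlapped the wild-type range and replicates 1 and 2 were lowest. Its log2 change was -0.29 (standard error 0.18; limma adjusted p = 0.31), and the 95% interval reached from -0.71 to 0.13. The FPKM ratio of Trim28 to Setdb1 was 7.17, 6.46 and 6.50 in wild-type cells and 4.12, 3.90, 7.10, 4.35 and 5.33 in mutator cells, so that 1 mutator library overlapped the wild-type range. Rescaling to TPM turned the sign of the Setdb1 change to 0.20, while the median of all genes moved up by 0.40, from -0.03 to 0.37. Relative to that median the Setdb1 change was -0.17.

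Among the HP1 genes, Cbx1 (HP1 beta) showed the lowest log2 change of the 10 members (chromosome 11, 96789127 to 96808640). It measured 83.1, 65.2 and 70.3 FPKM in wild-type cells and 25.3, 25.8, 49.4, 34.2 and 41.0 FPKM in mutator cells. All mutator libraries lay below the lowest wild-type library, and replicates 1 and 2 were farthest from it. The means of 72.8 ± 9.27 (SD, n = 3) and 37.5 ± 10.1 FPKM (SD, n = 4) correspond to 51.5% of the wild-type level. This is a log2 change of -0.97 (standard error 0.25, 95% interval -1.54 to -0.41; limma adjusted p = 0.051). It passed the threshold in 7 of 20 alternative settings.

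Cbx3 (HP1 gamma), which is also found on transcribed genes, lies on chromosome 6 (51470360 to 51483704). It measured 54.7, 39.1 and 40.9 FPKM in wild-type cells and 16.3, 15.5, 34.8, 19.7 and 31.0 FPKM in mutator cells. The groups did not overlap, though mutator replicate 3 came near the wild-type cells. On the log2 scale the difference was -0.85 (standard error 0.29; limma adjusted p = 0.099), with mutator cells at 56.4% of the wild-type mean. GENCODE M21 lists 8 processed pseudogenes of Cbx3, and how the authors' software divided reads between such copies is not given in the sources used here.

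Cbx5 (HP1 alpha), a paralog concentrated at pericentric heterochromatin, lies on chromosome 15 (103191544 to 103239816). It measured 95.6, 84.7 and 90.7 FPKM in wild-type cells and 48.1, 49.9, 63.4, 49.4 and 67.0 FPKM in mutator cells. The highest mutator library, replicate 5, was below the lowest wild-type library. The means were 90.3 ± 5.43 (SD, n = 3) and 57.2 ± 9.36 FPKM (SD, n = 4), with a log2 change of -0.66, a standard error of 0.20 and a limma adjusted p of 0.072.

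Summed over the 3 HP1 genes, the level was 233, 189 and 202 FPKM in wild-type cells and 89.7, 91.2, 148, 103 and 139 FPKM in mutator cells. The groups were apart, at 208 ± 22.9 (SD, n = 3) and 120 ± 27.5 FPKM (SD, n = 4). Within the sum, Cbx1 made up 35% ± 0.589 (SD, n = 3) in wild-type and 31.1% ± 2.61 (SD, n = 4) in mutator samples, again without overlap. The shares of Cbx3 (21.5% and 20.6%) and of Cbx5 (43.6% and 48.3%) overlapped. These sums and shares were chosen after the values were seen and carry no test.

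Suv39h1 and Suv39h2, paralogs that trimethylate H3K9 at pericentric repeats, had mutator means on opposite sides of their wild-type means. Suv39h2 (chromosome 2, 3455815 to 3475031) measured 10.2, 8.91 and 9.24 FPKM in wild-type cells and 5.40, 5.40, 6.34, 5.99 and 7.53 FPKM in mutator cells. All mutator libraries were below the wild-type ones, with means of 9.45 ± 0.670 (SD, n = 3) and 6.31 ± 0.896 FPKM (SD, n = 4). On the log2 scale Suv39h2 differed by -0.52 (standard error 0.15; limma adjusted p = 0.072).

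Suv39h1 (chromosome X, 8061171 to 8074760) measured 7.30, 6.84 and 4.77 FPKM in wild-type cells and 7.26, 7.43, 7.19, 9.24 and 9.72 FPKM in mutator cells. Mutator replicates 2, 4 and 5 were above all wild-type libraries and replicates 1 and 3 lay just under wild-type replicate 1. Its log2 change was 0.37 (standard error 0.19, 95% interval -0.07 to 0.80; limma adjusted p = 0.23).

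The FPKM ratio of Suv39h2 to Suv39h1, which no scaling of a library changes, was 1.40, 1.30 and 1.94 in wild-type cells and 0.744, 0.727, 0.881, 0.648 and 0.774 in mutator cells. Suv39h2 was the more abundant paralog in every wild-type library and Suv39h1 in every mutator library. The mean ratio was 1.55 ± 0.342 (SD, n = 3) and 0.760 ± 0.0966 (SD, n = 4), while the summed level of both overlapped, at 15.8 ± 1.74 and 14.7 ± 1.99 FPKM. The ratio was singled out after its values were seen and carries no test. Exons on the opposite strand overlap 8.1% of the exonic length of Suv39h2 (Dclre1c) and 14.6% of that of Suv39h1 (Gm14820). The strand setting of the counting is not given in the sources used here.

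**Figure D2:**
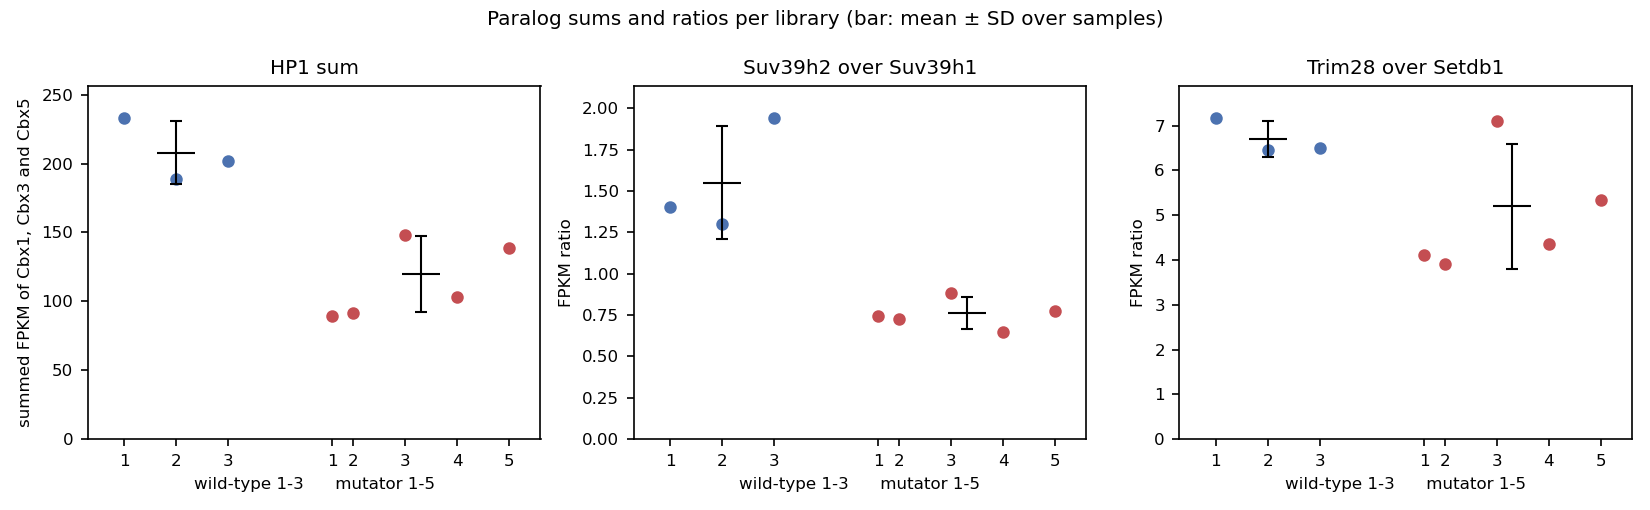
Summed FPKM of the HP1 genes (left) and FPKM ratios of Suv39h2 to Suv39h1 (middle) and Trim28 to Setdb1 (right) in each library, numbered by replicate within wild-type (blue) and mutator (red); bars give the mean and SD over 3 and 4 samples. The mutator points lie below all wild-type points in the left and middle panels, and mutator replicate 3 overlaps the wild-type points in the right panel.

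Ehmt1, which forms the main H3K9 dimethyltransferase together with EHMT2, lies on chromosome 2 (24789928 to 24919614). It measured 27.3, 23.2 and 33.3 FPKM in wild-type cells and 20.6, 20.5, 26.0, 23.9 and 30.7 FPKM in mutator cells. Mutator replicates 3, 4 and 5 lay within the wild-type range. Its log2 change was -0.14 (standard error 0.20; limma adjusted p = 0.67). Its sign turned under TPM, to 0.35, and with Y-linked expression as a covariate, to 0.03.

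Atrx, the chromatin remodeller of the H3.3 deposition pair, was the most abundant of the 10 in both groups (chromosome X, 105797615 to 105929403). It measured 177, 177 and 162 FPKM in wild-type cells and 140, 142, 166, 202 and 199 FPKM in mutator cells. The mutator libraries lay on both sides of the wild-type ones, replicates 1 and 2 below and 4 and 5 above. Its log2 change was 0.03 (standard error 0.22), and the 95% interval of -0.46 to 0.52 leaves room for a difference in either direction (limma adjusted p = 0.94).

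Daxx, the H3.3 chaperone that ATRX partners, lies on chromosome 17 (33909414 to 33915590). It measured 11.5, 9.18 and 14.3 FPKM in wild-type cells and 7.12, 8.26, 9.84, 7.73 and 11 FPKM in mutator cells. Mutator replicates 3 and 5 overlapped the wild-type range. The log2 change was -0.32 (standard error 0.20; limma adjusted p = 0.31), and it was 0.14 under TPM. The FPKM ratio of Atrx to Daxx was 15.3 ± 3.98 (SD, n = 3) in wild-type and 19.8 ± 4.23 (SD, n = 4) in mutator samples, with overlap.

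Ordered by their wild-type mean, the levels ran from Atrx (172 FPKM) through Trim28, Cbx5, Cbx1, Cbx3, Ehmt1, Setdb1, Daxx and Suv39h2 to Suv39h1 (6.31 FPKM). Of the neighbours in that order, Atrx and Trim28 had overlapping wild-type samples, as had Daxx and Suv39h2, and the others were apart. In mutator cells the order was the same except that Suv39h1 stood above Suv39h2. There the samples of Trim28, Cbx5, Cbx1 and Cbx3 each overlapped those of the gene next below, as did those of Daxx and Suv39h1, while Atrx, Ehmt1 and Setdb1 were apart from the gene below them.

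The mutator lines also differed among themselves. The mean of mutator replicates 1 and 2 was the lowest of the 7 samples for 9 of the 10 genes, all but Suv39h1. Replicate 5 was the highest mutator sample for 6 genes, and wild-type replicate 1 the highest of all samples for 6. Both samples with few Y-linked transcripts, replicates 1 and 2 together and replicate 4, lay below both replicates 3 and 5 for 8 of the 10 genes. Of all genes tested, 25.3% showed that order and 6.29% the opposite one. The exceptions were Atrx and Suv39h1, both on the X chromosome, and for both the order was mixed. For Atrx, replicates 1 and 2 together were at 141 and replicate 4 at 202 FPKM, beside 166 and 199 FPKM in replicates 3 and 5. For Suv39h1 the same samples were at 7.35 and 9.24 FPKM, beside 7.19 and 9.72 FPKM. The part of X linkage was not tested. Restricting the mutator group to replicates 3 and 5 gave log2 changes of -0.27 for Trim28, -0.68 for Cbx1, -0.42 for Cbx3, -0.46 for Cbx5, -0.40 for Suv39h2 and 0.38 for Suv39h1. With Y-linked expression as a covariate 0 of the 10 genes passed, and 0 of all genes did. What part Y-linked status has in these differences was not tested beyond these values.

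**Figure D3:**
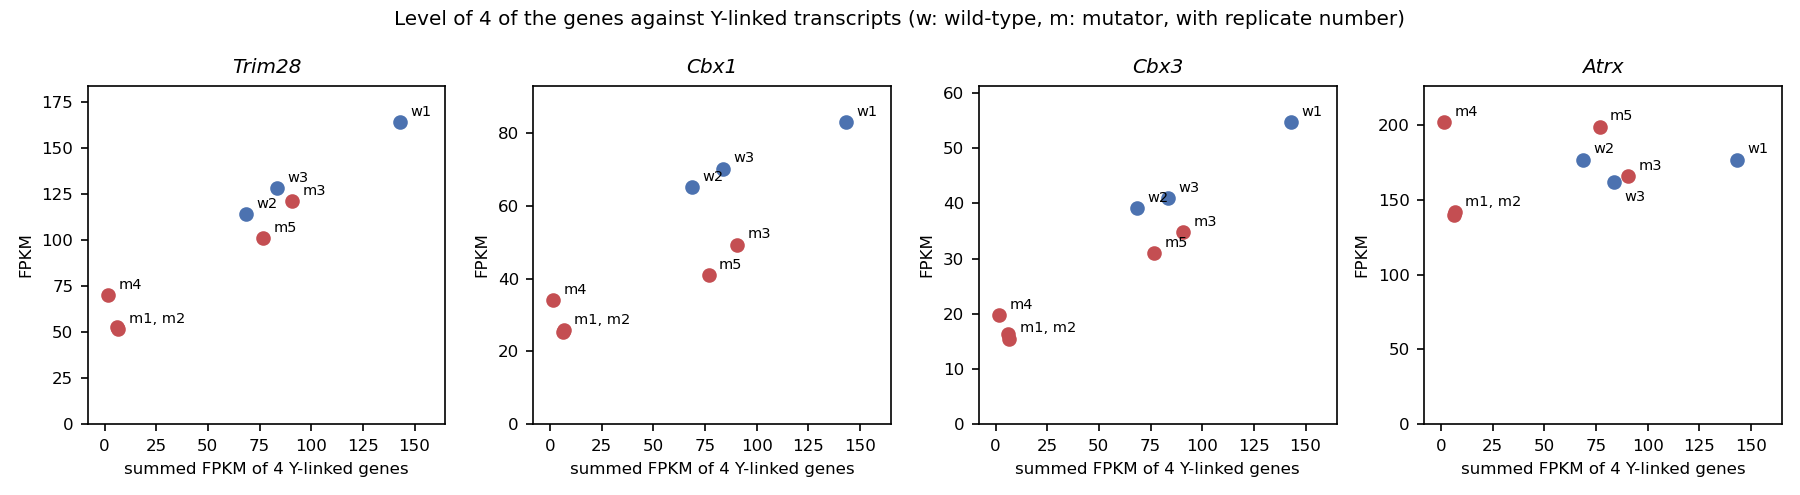
FPKM of Trim28, Cbx1, Cbx3 and Atrx (vertical axes) against the summed FPKM of 4 Y-linked genes (horizontal axes) in the 3 wild-type (blue, w) and 5 mutator (red, m) libraries. Mutator replicates 1, 2 and 4 sit at the left edge, at 1.65 to 6.6 FPKM of Y-linked transcripts, and are the lowest points for Trim28, Cbx1 and Cbx3 but not for Atrx.

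With mutator replicates 4 and 5 alone, whose feeder marker sums of 227 and 292 FPKM were nearest to the wild-type cells, the log2 changes were -0.66 for Trim28, -0.93 for Cbx1, -0.82 for Cbx3 and -0.64 for Cbx5. They were -0.44 for Suv39h2 and 0.54 for Suv39h1. Except for Suv39h1, which was at 0.37 over all 4 samples, these values are close to those over all 4. In this smaller set 0 of the 10 genes passed the threshold. With the feeder markers as a covariate 0 of the 10 passed either, with Cbx1 at -0.93 (limma adjusted p = 0.23). All 20 feeder markers had a higher mean in mutator than in wild-type samples. The part of feeder cells in these changes was not tested beyond these values. Replicate 5 held the highest endoderm marker sum, 403 FPKM.

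**Figure D4:**
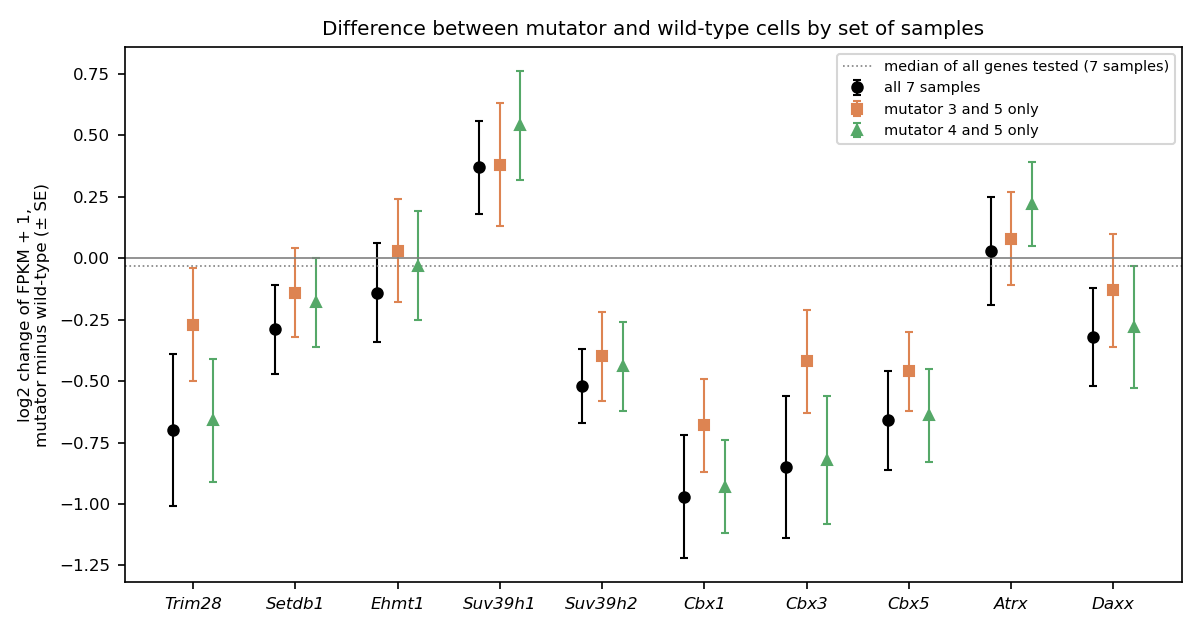
Log2 change of FPKM + 1, mutator minus wild-type (vertical axis, with standard error), for the 10 genes over all 7 samples (black circles), with mutator replicates 3 and 5 only (orange squares) and with replicates 4 and 5 only (green triangles); the dotted line is the median of all genes tested. Cbx1, Cbx3, Cbx5, Suv39h2 and Trim28 lie below 0 in all 3 sets and Suv39h1 above 0.

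By the root-mean-square difference of mean-centred log2 profiles over the 7 samples, the gene most like Trim28 among 10255 ranked was Cbx3 (0.09). It was followed by Sssca1 (0.094), Tfap4 (0.106), Ddx39b (0.116) and Rcor2 (0.12). Cbx1 ranked 56, Cbx5 326 and Setdb1 1019, while Suv39h1 ranked 7072. These profiles hold the difference between the groups and that between mutator samples with many and with few Y-linked transcripts. Of all genes tested, 25.3% had the mutator samples with few such transcripts below the others. A near rank is therefore no test of shared regulation.

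2 of the HP1 genes share their upstream region with a gene on the other strand. Hnrnpa2b1, for an RNA-binding splicing factor, starts 722 or 771 bases from Cbx3, depending on the start site used. Its mean was 113 ± 11.1 FPKM (SD, n = 3) in wild-type cells, beside 76.1 ± 30.7 FPKM (SD, n = 4) in mutator cells (log2 change -0.66, limma adjusted p = 0.22). Hnrnpa1, for a related splicing factor, starts 545 bases from Cbx5 and measured 129 ± 22.0 and 86.8 ± 39.6 FPKM (log2 change -0.68, limma adjusted p = 0.26). Both neighbours overlapped between groups, and so did the ratio of each HP1 gene to its neighbour. BC051226, which starts 267 to 423 bases from Daxx, was too low to be tested.

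Around these 10 genes, 9 lists of other genes of this pathway were measured. Among the 9 is a list of H3K9 erasers, which remove the mark, and of its 9 tested genes 1 fell. A further list held germline and other genes that silencing acts on (germline targets). Of the 116 genes of these 10 lists, 97 were above the filter. Of these, 2 rose and 16 fell in mutator cells, with a median log2 change of -0.23. That is 18 of 97 beside the 7.49% of all genes that passed in either direction. The lists were chosen with earlier results of these data known, so such counts are no test of them. Without the germline targets, 2 of 90 tested genes rose and 14 fell. The count of 18 fell to 0 when any one wild-type sample or the pair of mutator replicates 1 and 2 was left out. It fell to 2 without mutator replicate 4, and to 0 with either the feeder or the Y-linked covariate. Under TPM 5 were higher and 2 lower.

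Among the KRAB zinc-finger genes, whose proteins bring TRIM28 to DNA, 4 of 12 tested genes fell and none rose. Of all 11949 genes tested, 542 fell and 353 rose. Zfp809, which recognises the primer binding site of murine leukaemia virus, fell from 8.28 ± 0.605 (SD, n = 3) to 4.73 ± 0.817 FPKM (SD, n = 4), a log2 change of -0.71 (limma adjusted p = 0.042). Zfp819 fell from 5.49 ± 0.446 to 1.44 ± 0.469 FPKM (limma adjusted p = 0.021), Zfp600 from 7.93 ± 1.06 to 2 ± 0.591 FPKM (adjusted p = 0.021) and Rex2 from 16.5 ± 1.92 to 6.57 ± 2.51 FPKM (adjusted p = 0.037). Such genes form families of similar sequence, and Zfp600 and Rex2 both lie on chromosome 4, so that the split of reads between copies is uncertain.

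A list built around the HUSH complex and MORC genes, which hold H3K9me over retroelements, had 7 tested genes, all with a change below 0. Such a change was found for 52.4% of all genes and 61.6% of those that averaged 5 FPKM or more. The 2 that fell, where 542 of all 11949 genes tested did, are neither core HUSH subunits nor MORC genes. None of Mphosph8, Pphln1, D14Abb1e (Fam208a), Morc2a and Morc3 passed (limma adjusted p from 0.07 to 0.72). Resf1 (2810474O19Rik in the table), for a protein that helps SETDB1 silence retroviruses, fell from 39.8 ± 1.97 (SD, n = 3) to 20 ± 3.45 FPKM (SD, n = 4), a log2 change of -0.97 (limma adjusted p = 0.031). BC016423, the gene also named Fam208b, fell from 14.9 ± 0.731 to 7.74 ± 1.95 FPKM (limma adjusted p = 0.040).

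In the list of H3.3 and histone chaperone and remodelling genes 4 of 14 fell, with a median of -0.64. Among all 11949 genes tested, 542 fell, with a median of -0.03. Nasp, a histone H3 and H4 chaperone, fell from 207 ± 20.7 (SD, n = 3) to 95.4 ± 28.7 FPKM (SD, n = 4; limma adjusted p = 0.044). Hells, a remodeller needed for DNA methylation of repeats, fell from 103 ± 6.72 to 51.2 ± 11.6 FPKM (adjusted p = 0.041). Asf1a, the H3 and H4 chaperone, was at 8.07 beside 15.9 FPKM (adjusted p = 0.031), and Smarcad1, a remodeller that binds TRIM28, at 13.6 beside 25.6 FPKM (adjusted p = 0.048). Of 8 proliferation genes 2 fell and none rose, beside the same 542 of 11949 that fell among all genes. Pcna, the replication clamp, fell from 94.8 ± 21.0 to 38.3 ± 9.17 FPKM (adjusted p = 0.032) and Mcm5, of the replicative helicase, from 37.4 ± 6.54 to 20 ± 3.81 FPKM (adjusted p = 0.044). Mki67, at 30.2 beside 27.1 FPKM, and Aurkb, at 16.7 beside 15.8 FPKM, had slightly higher means and did not pass. The 8 summed to 509 to 724 FPKM in wild-type and 285 to 443 FPKM in mutator samples. The part of proliferation in these changes was not tested.

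SUMO conjugation links TRIM28 to SETDB1, and 3 of 12 tested genes of that pathway fell, where 542 of all 11949 did. Sumo2, one of the SUMO modifiers, fell from 87.9 ± 27.8 (SD, n = 3) to 41.3 ± 8.92 FPKM (SD, n = 4; limma adjusted p = 0.047). Uba2, a subunit of the SUMO activating enzyme, fell from 107 ± 20.6 to 52.4 ± 11.1 FPKM (limma adjusted p = 0.041).

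Of the genes of the opposite or neighbouring marks, Kdm3a, an H3K9 demethylase, fell from 13.4 ± 0.961 (SD, n = 3) to 7.10 ± 2.02 FPKM (SD, n = 4; limma adjusted p = 0.042), as 1 of 9 tested erasers. Suv420h2 (Kmt5c), which trimethylates histone H4 lysine 20 at HP1-bound chromatin, rose from 5.42 ± 1.38 to 12.4 ± 2.40 FPKM (adjusted p = 0.033), as 1 of 8 in its list. Mta1, a subunit of the NuRD deacetylase complex, rose from 5.11 ± 0.927 to 11.9 ± 2.16 FPKM (adjusted p = 0.029), as 1 of 15. Among all 11949 genes tested, 542 fell and 353 rose. None of the 6 other tested H3K9 writers and their cofactors passed. Atf7ip, which stabilises SETDB1, was at 12 ± 3.19 beside 8.61 ± 0.225 FPKM (limma adjusted p = 0.22). None of 7 genes that link H3K9me to DNA methylation passed either, with Uhrf1 at 27.9 ± 6.29 beside 43.8 ± 3.41 FPKM (limma adjusted p = 0.098).

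Genes that this system is known to keep silent, germline genes and others such as Zscan4c and Zfp352, were mostly too low to test, 11 of 18. Of the 7 tested, 2 fell and none rose, where 542 of all 11949 genes tested fell and 353 rose. Stk31 fell from 2.59 ± 0.205 (SD, n = 3) to 1.15 ± 0.0762 FPKM (SD, n = 4; limma adjusted p = 0.032), and Sycp1 from 2.37 ± 0.517 to 0.846 ± 0.174 FPKM (adjusted p = 0.036).

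**Figure D5:**
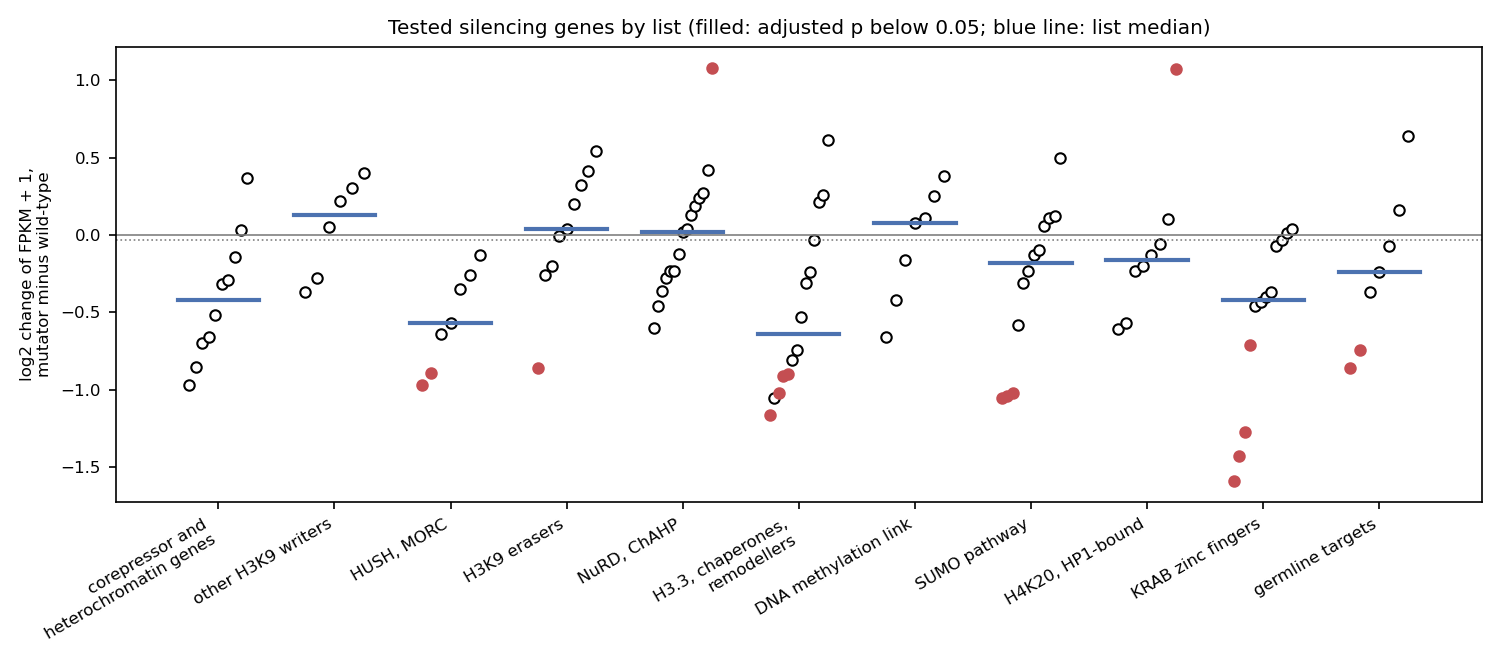
Log2 change of FPKM + 1, mutator minus wild-type (vertical axis), of each tested gene by list. Shown are the corepressor and heterochromatin group and 10 lists of other silencing genes, H3K9 erasers and germline targets. Filled points have a limma adjusted p below 0.05, blue lines are list medians and the dotted line is the median of all genes tested. Most filled points lie below 0, with Mta1 and Suv420h2 above it.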

How the data were processed

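Values were the authors' deposited FPKM, 1 column per library, with headers in the style of Cufflinks. Per the submitters' processing notes, STAR and Cufflinks were used. Build, annotation, strand setting and depth are not given in the sources used here, so no count test or counting interval was possible. Rows sharing a symbol were summed (265 symbols of 37305 rows), and 31 cells were missing. Each library had 11198 to 11899 genes at 1 FPKM or more. Positions come from GENCODE M21 by gene ID, which matched 35531 rows.

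The test was limma 3.58.1 (R 4.3.3, mean-variance trend) on log2(FPKM + 1), for the 11949 genes averaging 1 FPKM or more. Benjamini-Hochberg adjustment was made over all of these, with 0.05 as the threshold. Log2 changes on this scale understate the change of low genes. A sample with a missing value was left out for the 19 tested genes concerned. p-values measure the spread between lines, and the wild-type headers share a number, so these lines may share an embryo. Mutator replicates 1 and 2 were averaged because they differed by 2.07 times the sampling noise (from a depth estimated on 97 low genes, which is uncertain), against at least 7.55 times in the other pairs. The condition set for averaging them was a difference within sampling noise, which this only approaches, so the count with all 8 libraries stands beside it. The rest used SciPy 1.17.1, numpy 2.4.6, pandas 2.3.3 and matplotlib 3.10.9 under Python 3.11.15, and the fit was tested on simulated data.

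The genes and lists were chosen with earlier results of these data known. Named genes are the 10 members, up to 4 genes past the threshold per list or else the 2 with the smallest p, genes starting within 1000 bases on the opposite strand, the 5 profiles nearest to Trim28, and Polg. Atf7ip and Uhrf1 are given as values under that rule, some genes it selects are not reported here, and the sums and ratios were added after the values were seen. Promoter windows come from RefSeq (GRCm38.p6) and matched all 10 members. Alternatives covered the sample unit, pseudocount, filter, scaling, weights, variance trend, covariates, replicate block and left-out replicates. Restricting the mutator group to replicates 3 and 5 was chosen after seeing the data.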

Additional observations from a re-analysis of the deposited data

Results flagged for a closer look

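Of 24 gene levels, sums and ratios examined within the 4 mutator samples, 1 stood out by the gap of a single sample to the others. The FPKM ratio of Atrx to Daxx was 26.1 in mutator replicate 4, against 16.9 to 18.3 in the other mutator samples, and the gap made up 0.846 of the whole range, above the 95% critical value of the test for 4 samples. Chance flags about 1 in 20 such groups, so 1 of 24 is near that rate.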

How the results depend on the processing

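Of the 10 genes, 0 passed in the fit reported. With all 8 libraries or with array weights 4 passed, with median-of-ratios size factors 3, and 1 (Cbx1) with a pseudocount of 0.1, a filter at 5 FPKM or no variance trend. Leaving out a replicate gave 0 to 1, the 1 being Cbx1 without mutator replicate 3. Trim28, Cbx1, Cbx3, Cbx5, Suv39h1 and Suv39h2 kept their direction in all 20 alternatives, but under TPM the lower ones shrank to -0.19 (Trim28), -0.46 (Cbx1), -0.35 (Cbx3), -0.16 (Cbx5) and -0.07 (Suv39h2), and Suv39h1 grew to 0.80. Relative to the TPM median of all genes these were -0.56, -0.83, -0.72, -0.52, -0.43 and 0.44. Signs turned under TPM for Setdb1 (0.20), Daxx (0.14), Ehmt1 (0.35), Atf7ip2 (0.02) and 4933421E11Rik (0.02). They turned for Ehmt1 with the Y-linked covariate (0.03) and with mutator replicates 3 and 5 only (0.03). Atrx, at 0.03, was -0.03 with all 8 libraries and -0.04 to 0.13 with a replicate left out. With the replicate block, a fit without mutator replicates 4 and 5, Atrx was at -0.20. Polg was -0.06 with array weights, -0.14 with the feeder covariate and -0.08 with mutator replicates 4 and 5 only.

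Of all genes, 895 changed. The count was 2203 with all 8 libraries, 2149 with median-of-ratios size factors, 3613 with array weights, 4 with no filter, 3 with the feeder covariate, 0 with the Y-linked covariate, 16 with mutator replicates 4 and 5 only and 4 with replicates 3 and 5 only. Leaving out a replicate gave 2 to 1096: 5, 2 and 2 without wild-type replicates 1, 2 and 3, 5 without mutator replicates 1 and 2, 241 without replicate 4 and 581 without replicate 5. TPM gave 1092 higher and 21 lower genes, against 353 and 542, and moved the median of all genes by 0.40, from -0.03 to 0.37. It divides the values of a sample by their FPKM sum, and these sums ran from 753984 to 1780534 over the libraries. Of the other silencing genes, H3K9 erasers and germline targets 18 changed. The count was 28 with all 8 libraries or with median-of-ratios size factors, 36 with array weights and 7 under TPM. It was 0 with no filter, 0 with either covariate, 0 in either reduced set, and 0 to 13 with a replicate left out. Why the FPKM sums differ, and the cause of the shifts other than that under TPM, was not tested.

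Same-numbered samples did not deviate together (correlations 0.013, -0.012 and 0.051). The replicate block was fitted on wild-type and mutator replicates 1 to 3 alone, without mutator replicates 4 and 5. It counted mutator replicates 1 and 2 separately. In that fit 1 gene changed in all, 0 of the 10 members and 0 of the other lists. The block and the change of samples cannot be told apart in these counts. Depth is unknown, and 7 samples limit the precision: an exact permutation test of 4 against 3 cannot go below 0.057.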

Other observations

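Set against pluripotency factors, the HP1 level gave different pictures, as values chosen after they were seen and with no test. The ratio of the summed HP1 FPKM to Pou5f1, the core pluripotency factor, overlapped, at 0.792 ± 0.010 (SD, n = 3) in wild-type and 0.830 ± 0.187 (SD, n = 4) in mutator samples. Its ratio to Sox2, the DNA-binding partner of that factor, did not overlap, at 3.05 ± 0.280 and 1.76 ± 0.540. The ratio of Trim28 to Pou5f1 was 0.512 ± 0.0449 and 0.587 ± 0.197, and its ratio to Sox2 was 1.97 ± 0.291 and 1.27 ± 0.569, both with overlap. Pou5f1 itself was at 263 ± 26.4 FPKM in wild-type and 148 ± 36.2 FPKM in mutator samples (limma adjusted p = 0.072), without overlap.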
